A study of Mus musculus with 4 samples.

Results

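The 7 genes Klf2, Klf4, Klf6, Nos3, Thbd, Edn1 and Piezo1, by which endothelial cells sense blood flow and answer it, were followed through 4 libraries of mouse brain endothelial cells. They were chosen by name, and each was found once in the deposited tables, among 20194 genes listed at either stage and 16181 listed at both. In the knockout library Klf2, Klf6 and Nos3 stood above wild type at embryonic day 15 (E15), and Thbd stood below it. At E18 knockout stood below wild type in Klf2, Klf6 and Piezo1, and above it in Edn1. Klf4 was below wild type at both stages. No member differed 2-fold between the genotypes. Between the stages Klf4 was higher and Piezo1 lower at E18 in both genotypes, and whether a test across all 4 libraries called them depended on the tool and the filter. With genes of 1 CPM edgeR called neither, with genes of 5 CPM it called both, and DESeq2 called Klf4.

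Laminar shear stress opens the channel Piezo1 and loads junctional complexes of the endothelial cell, and a kinase cascade that runs through MEKK3, MEK5 and ERK5 then lets MEF2 factors transcribe Klf2 and Klf4. The KLF factors bind GC-rich promoter elements through zinc fingers at the C terminus. In mouse and human endothelial cells KLF2 and KLF4 raise the nitric oxide synthase gene Nos3 and the thrombomodulin gene Thbd and lower the endothelin gene Edn1, which together keep a vessel dilated, unclotted and quiescent. Klf2, Klf4 and Klf6 are also immediate early genes in many cell types and answer stress and tissue dissociation within minutes to hours.

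The groups were UCP2f/f;Tie2-cre embryos, here called knockout, and embryos labelled WT, at E18 and at E15, all of strain C57BL/6, with 1 library in each of the 4 groups. In the knockout, Cre made under the Tie2 promoter, which is active in endothelial cells and most blood cells, acts on a floxed Ucp2 gene. The labels do not say whether the WT embryos carried floxed alleles or Cre, how many embryos gave a library, or how the cells were isolated. The series text speaks of triplicates, and 1 library a group was analysed here. With 1 library a group there was no replicate check, and the intervals given are exact Clopper-Pearson 95% intervals that cover counting error only.

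The libraries held 21992660 reads in listed genes for knockout and 19075407 for wild type at E18, and 16328300 for knockout and 15542930 for wild type at E15. Levels are given as CPM, the reads of a gene scaled to that total. Ucp2 itself was at 149.9 CPM in the knockout and 351 CPM in the wild-type library at E18 (log2 ratio -1.22), and at 163 CPM in the knockout and 276 CPM in the wild-type library at E15 (log2 ratio -0.75). The E18 libraries also differed in sex-linked transcripts: Xist had 547 reads in the knockout and 0 in the wild-type library, and the Y-linked Ddx3y 0 and 5826. At E15 Xist had 2109 reads in the knockout and 2549 in the wild-type library, and Ddx3y was not listed. Genotype and sex cannot be told apart at E18, nor stage and sex in the wild-type pair. The additive model used below has no term for sex. The 10 pan-endothelial markers were present in every library, with summed levels of 16421, 16020.1, 14991 and 13923 CPM in the knockout and wild-type libraries at E18 and then at E15. Cldn5 alone held 8064, 7235, 7583 and 6151 CPM of these sums, in the same order. The genotype log2 ratio was below 0 in 6 of the 10 markers at E18 (median -0.04) and in 8 at E15 (median -0.05).

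Promoters are shown for Klf2 and Klf4, the pair of factors whose balance differed between libraries, and for Edn1, whose known answer to KLF2 is opposite to that of Nos3. Each runs from 250 bases before to 50 bases after the start site, 5′ to 3′ on the gene's strand (RefSeq, GRCm38.p6), and 5 of the 7 members were matched in that set. The windows are chr8:72318812-72319111 for Klf2 on the plus strand, chr4:55532426-55532725 for Klf4 on the minus strand and chr13:42301226-42301525 for Edn1 on the plus strand. Capitals mark matches to 4 motifs. That of MEF2 is CTA followed by 4 free bases and TAG. The KLF motif is CACCC. The AP-1 motif is TGANTCA. The GATA motif is AGATAA. Both strands were searched, so a match on the other strand stands in the text as its reverse complement, and no matches in the 3 windows overlapped.
Klf2: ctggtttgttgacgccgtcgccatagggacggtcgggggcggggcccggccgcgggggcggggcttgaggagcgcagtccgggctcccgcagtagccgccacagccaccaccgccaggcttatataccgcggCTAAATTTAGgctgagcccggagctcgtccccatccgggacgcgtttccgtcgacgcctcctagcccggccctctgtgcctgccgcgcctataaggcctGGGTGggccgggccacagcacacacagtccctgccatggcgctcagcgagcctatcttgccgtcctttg
Klf4: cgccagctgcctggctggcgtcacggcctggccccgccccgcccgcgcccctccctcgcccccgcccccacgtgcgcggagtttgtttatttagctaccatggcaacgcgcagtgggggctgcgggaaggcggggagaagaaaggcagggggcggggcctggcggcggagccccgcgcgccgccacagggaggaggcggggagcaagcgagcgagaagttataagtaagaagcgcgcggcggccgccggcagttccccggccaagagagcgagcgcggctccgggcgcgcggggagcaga
Edn1: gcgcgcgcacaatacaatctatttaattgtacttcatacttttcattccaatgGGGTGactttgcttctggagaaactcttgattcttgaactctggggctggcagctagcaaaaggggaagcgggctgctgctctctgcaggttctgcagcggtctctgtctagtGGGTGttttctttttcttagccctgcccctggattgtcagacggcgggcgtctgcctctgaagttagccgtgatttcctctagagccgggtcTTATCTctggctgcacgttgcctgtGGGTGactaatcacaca

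The Klf2 window held the MEF2 motif once, as CTAAATTTAG beginning 118 bases before the start site, and the KLF motif once. Of all 32851 promoter windows in the set, 3.69% held the MEF2 motif, 57.5% the KLF motif, 7.81% the AP-1 motif and 11.2% the GATA motif. The Edn1 window held the KLF motif 3 times and the GATA motif once. The Klf4 window held 0 matches to the 4 motifs, as did the Klf6 window, and the Piezo1 window held 1 KLF match. A match is a description of these letters and not a bound site.

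Per length, Klf6 was the most abundant of the 7 genes, and Piezo1 the least. In CPM per kilobase of exon, Klf6 stood at 227 in knockout and 296 in wild type at E18, and at 268 in knockout and 243 in wild type at E15, among the 157 highest genes in every library by this measure. Klf2 ranged from 46.9 to 74.7, Klf4 from 25.6 to 56.7, Nos3 from 35.3 to 42.0, Thbd from 30.6 to 41.9, Edn1 from 22.9 to 30.5 and Piezo1 from 1.3 to 3.54. Klf6 came first and Klf2 second in each of the 4 libraries, and Edn1 and Piezo1 came last. Klf4, Nos3 and Thbd lay between them with overlapping ranges, so their order is not fixed. In the knockout library at E15 Klf4 (25.6) stood behind Nos3 (39.9) and Thbd (30.6) and close to Edn1 (24.0). In the other 3 libraries Klf4 stood above both Nos3 and Thbd.

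**Figure D1:**
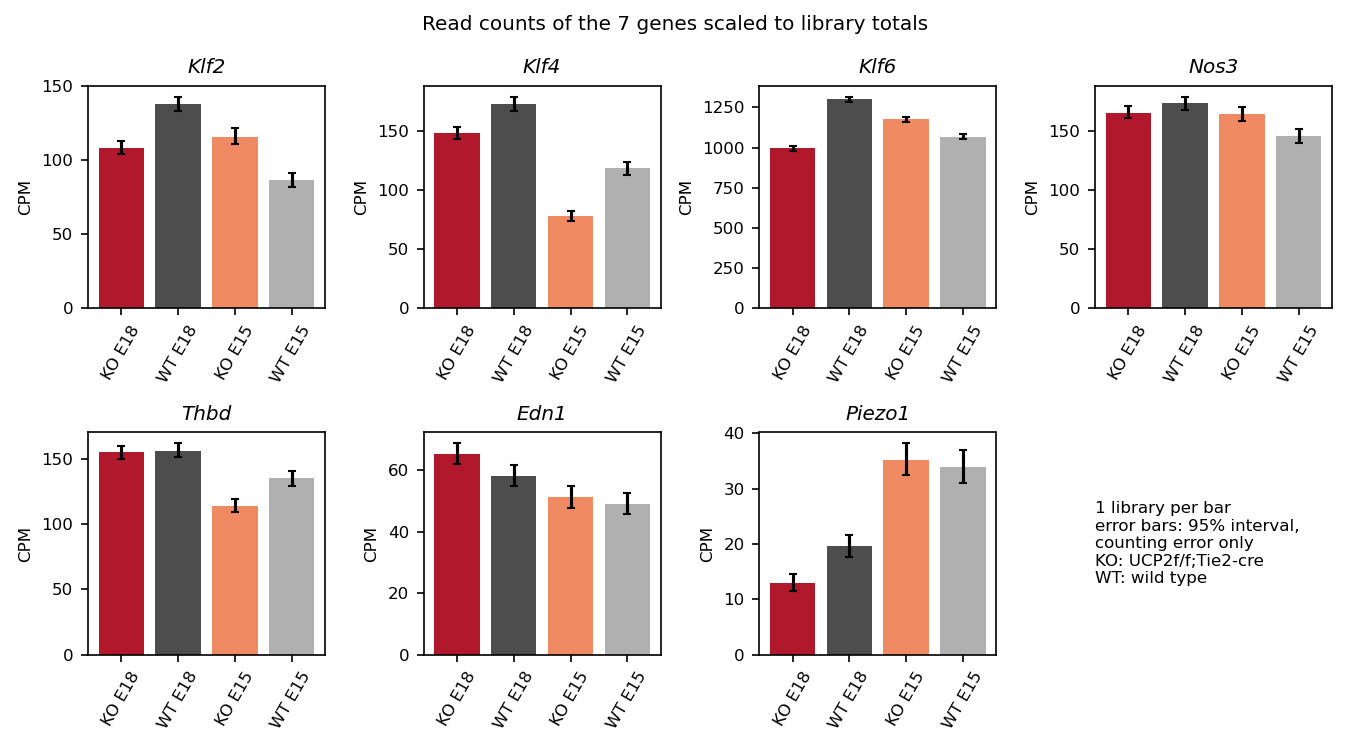
Level of each of the 7 genes in the 4 libraries, in CPM, reads scaled to the library total. Each bar is 1 library, with a 95% interval of counting error. Klf4 is lowest in the knockout library at E15 (78.1 CPM), Klf2 highest in the wild-type library at E18 (138 CPM), and Piezo1 lower in both E18 libraries than in both E15 libraries.

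Differences between 2 libraries are given as the log2 ratio of CPM + 1, and a gene was called at a 2-fold ratio on that scale. Of the 7 members, 0 were called between knockout and wild type at E18, where 6.8% of 12349 genes were (2.88% higher and 3.92% lower). At E15 0 members were called, where 6.87% of 12633 genes were (3.55% higher and 3.32% lower). Knockout stood below wild type in 6 of the 7 at E18 (median -0.22) and above it in 5 of the 7 at E15 (median 0.06). Over all genes the medians were 0.0 at E18 and -0.01 at E15, with 50.3% and 49.4% of genes above 0. In bulk RNA, fewer cells of a type and less RNA per cell cannot be told apart in any of these values.

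Piezo1 (ENSMUSG00000014444, chromosome 8, 122481698 to 122551329, minus strand), the stretch-activated channel, had 285 reads in the knockout and 373 in the wild-type library at E18, and 575 in the knockout and 526 in the wild-type library at E15. These were 13 and 19.6 CPM in knockout and wild type at E18, and 35.2 and 33.8 CPM in knockout and wild type at E15. Both E18 libraries lay below both E15 libraries, and the knockout library at E18 was lowest. The genotype ratio was -0.56 at E18 (interval of the count ratio -0.82 to -0.37) and 0.06 at E15 (-0.12 to 0.23). Piezo1 overlaps Ctu2 on the other strand by 2441 bases. The strand setting of the counting is not stated, so reads of the 2 genes may be mixed. Gm20388, on the other strand too, covers all of Piezo1 and is listed in neither table. Ctu2 had 384 and 377 reads in knockout and wild type at E18, and 378 and 328 in knockout and wild type at E15.

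Klf2 (ENSMUSG00000055148, chromosome 8, 72319033 to 72321656), the flow-induced transcription factor of quiescent endothelium, had 2380 reads in the knockout and 2632 in the wild-type library at E18. At E15 it had 1902 in knockout and 1347 in wild type. Scaled to the totals, knockout had 108 CPM and wild type 138 CPM at E18, while knockout had 116 CPM and wild type 86.7 CPM at E15. The 2 knockout libraries were thus close to each other, and the wild-type libraries lay on either side of them. The genotype ratio was -0.35 at E18 (-0.43 to -0.27) and 0.42 at E15 (0.33 to 0.53), and 14.6% of genes had a higher ratio at E15.

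Klf4 (ENSMUSG00000003032, chromosome 4, 55527143 to 55532466, minus strand), which shares many endothelial targets with Klf2, had 3250 and 3296 reads in the knockout and wild-type libraries at E18. At E15 it had 1275 reads in knockout and 1842 in wild type. The levels were 148 CPM in knockout and 173 CPM in wild type at E18, and 78.1 CPM in knockout and 119 CPM in wild type at E15. The genotype ratio was -0.22 at E18 (-0.30 to -0.16) and -0.60 at E15 (-0.71 to -0.50), and at E15 9.27% of all genes had a lower one. Klf4 was the only member below wild type at both stages with both intervals below 0.

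Klf6 (ENSMUSG00000000078, chromosome 13, 5861482 to 5870394), a KLF factor induced early after injury, was the most deeply counted member. It had 21894 reads in knockout and 24834 in wild type at E18, and 19208 in knockout and 16589 in wild type at E15. The levels were 996 CPM in knockout and 1302 CPM in wild type at E18, and 1176 CPM in knockout and 1067 CPM in wild type at E15. Its genotype ratio was -0.39 at E18 (-0.41 to -0.36) and 0.14 at E15 (0.11 to 0.17), with the same signs as Klf2. At E18 the genotype ratios of Klf2, Klf4 and Klf6 all lay below 0.

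Nos3 (ENSMUSG00000028978, chromosome 5, 24364810 to 24384474), the endothelial nitric oxide synthase, varied least of the 7, with a highest level 1.19 times the lowest. It had 3660 reads in knockout and 3311 in wild type at E18, and 2692 in knockout and 2267 in wild type at E15. That gave 166 and 174 CPM in knockout and wild type at E18, and 165 and 146 CPM in knockout and wild type at E15. Its genotype ratio was -0.06 at E18, with an interval that holds 0 (-0.13 to 0.01), and 0.18 at E15 (0.10 to 0.26). On the other strand Nos3 overlaps the antisense gene Gm15587 and the end of Atg9b. Both held few reads (16, 22, 25 and 27 for Gm15587, and 0, 26, 22 and 19 for Atg9b, in knockout and wild type at E18 and then at E15).

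Thbd (ENSMUSG00000074743, chromosome 2, 148404466 to 148408188, minus strand) encodes thrombomodulin, which turns thrombin towards activating protein C. It had 3405 reads in knockout and 2978 in wild type at E18, and 1862 in knockout and 2092 in wild type at E15. The E18 libraries were level, with 155 CPM in knockout and 156 CPM in wild type (ratio -0.01, -0.08 to 0.06). At E15 knockout stood at 114 CPM and wild type at 135 CPM (ratio -0.24, -0.33 to -0.15). As with Klf4, the knockout library at E15 was the lowest of the 4.

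Edn1 (ENSMUSG00000021367, chromosome 13, 42301476 to 42307990), the precursor of the vasoconstrictor endothelin-1, had 1436 reads in knockout and 1108 in wild type at E18, and 837 in knockout and 762 in wild type at E15. Knockout had 65.3 CPM and wild type 58.1 CPM at E18 (ratio 0.17, 0.05 to 0.28). At E15 knockout had 51.3 CPM and wild type 49.0 CPM (ratio 0.06, -0.08 to 0.21). Edn1 was the one member whose E18 interval lay above 0.

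**Figure D2:**
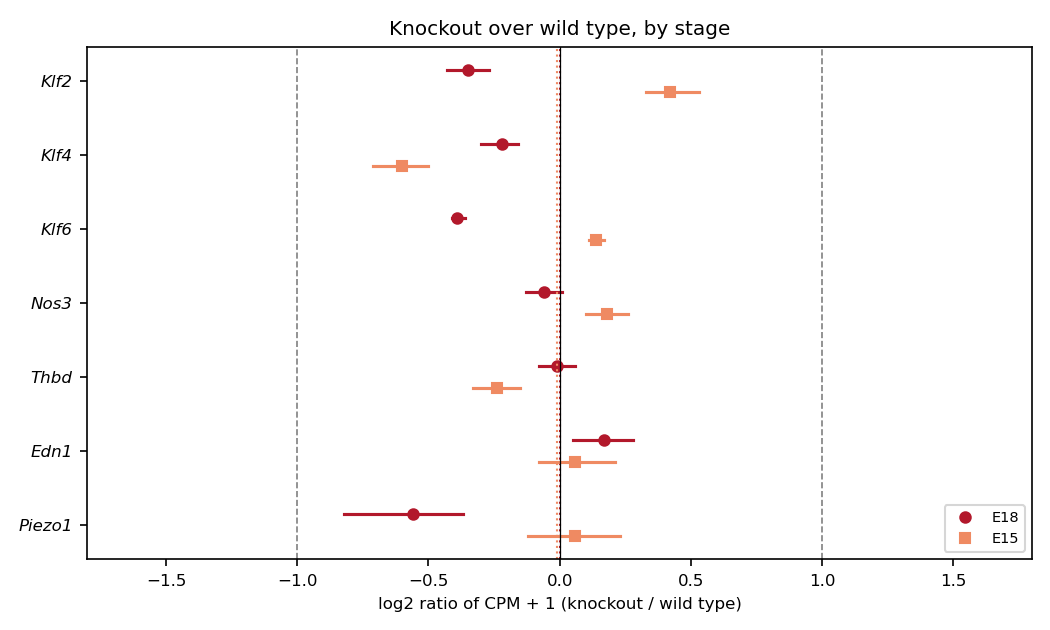
Log2 ratio of CPM + 1, knockout over wild type, for each gene at E18 (circles) and E15 (squares), with 95% intervals of the count ratio (counting error only). Dotted lines mark the median of all genes and dashed lines the 2-fold ratios. Klf2 (-0.35 at E18, 0.42 at E15) and Klf6 (-0.39 at E18, 0.14 at E15) lie on opposite sides of 0 at the 2 stages, and all points lie within the 2-fold lines.

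Since scaling cancels within a library, the balance of the 2 factors Klf2 and Klf4 was also read from their counts alone. Klf2 made up 42.3% of the reads of the pair in the knockout and 44.4% in the wild-type library at E18, with intervals of 41.0 to 43.6 and 43.1 to 45.7. At E15 it made up 59.9% in the knockout library (58.1 to 61.6) and 42.2% in the wild-type library (40.5 to 44.0). So 3 libraries had a similar balance, and the knockout library at E15 stood apart with more Klf2 than Klf4 reads. Thbd reads were 48.2% of Thbd and Nos3 together in knockout and 47.4% in wild type at E18, and 40.9% in knockout and 48.0% in wild type at E15, so that library was lowest here too. For Edn1 against Nos3 the shares were 28.2% in knockout and 25.1% in wild type at E18, and 23.7% in knockout and 25.2% in wild type at E15. Klf2 reads were 39.4% of Klf2 and Nos3 together in knockout and 44.3% in wild type at E18. At E15 they were 41.4% in knockout and 37.3% in wild type, so by this pair the knockout library at E15 lay between the others.

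Between stages the median gene was lower at E18, by -0.10 in knockout and -0.11 in wild type on the log2 scale. TMM factors moved both medians up by 0.11, so the ratios below are also given relative to the median. In the knockout pair 1 of the 7 members, Piezo1, was past 2-fold, where 15.3% of 12465 genes were (4.34% higher and 10.9% lower). In the wild-type pair 0 members were, where 10.7% of 12515 genes were (3.08% higher and 7.58% lower). Piezo1 had an E18 over E15 ratio of -1.38 in knockout (interval -1.65 to -1.23, -1.28 relative to the median) and -0.76 in wild type (-0.99 to -0.60, -0.65 relative to the median).

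Klf4 had a stage ratio of 0.91 in knockout (0.83 to 1.01) and 0.54 in wild type (0.46 to 0.63), which is 1.01 and 0.65 above the median gene. With TMM factors the knockout ratio was 1.02, just past 2-fold. Klf2 had -0.11 in knockout and 0.66 in wild type (-0.01 and 0.78 relative to the median), and its sign in knockout turned with TMM factors (0.01). Klf6 had -0.24 in knockout and 0.29 in wild type (-0.14 and 0.40 relative to the median). Thbd had ratios of 0.44 in knockout and 0.21 in wild type (0.53 and 0.33 relative to the median), and Edn1 0.34 in knockout and 0.24 in wild type (0.44 and 0.35). Nos3 had 0.01 in knockout and 0.25 in wild type (0.11 and 0.36), and its knockout ratio was -0.14 when scaled to the endothelial markers. Genes with a stage ratio above 0 made up 42.1% of all genes in knockout and 39.1% in wild type, against 4 and 6 of the 7 members.

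**Figure D3:**
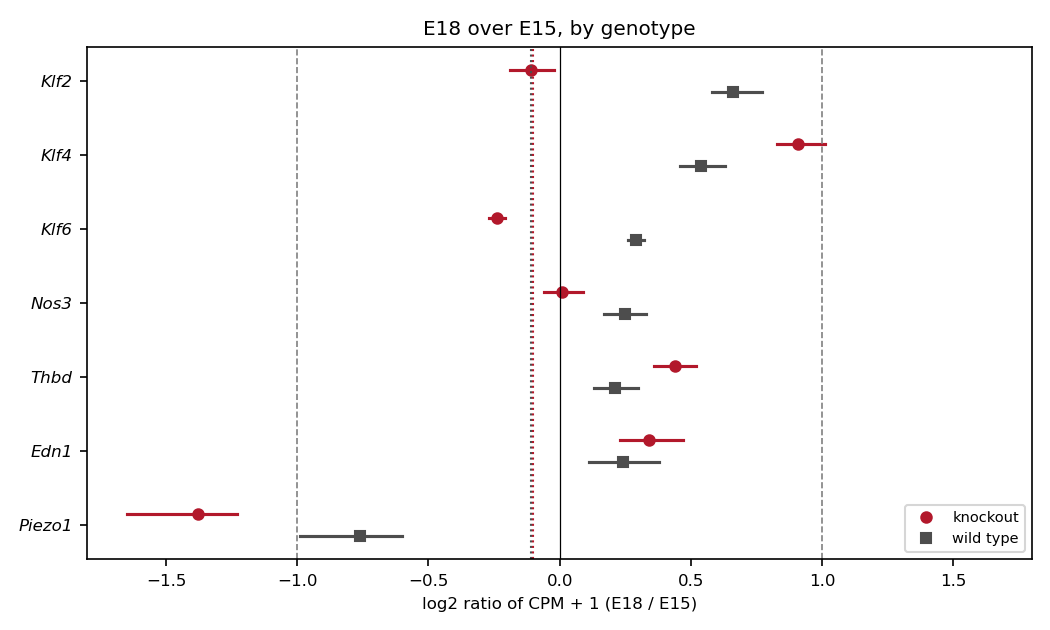
Log2 ratio of CPM + 1, E18 over E15, in knockout (circles) and wild type (squares), with 95% intervals of the count ratio (counting error only). Dotted lines mark the median of all genes and dashed lines the 2-fold ratios. Klf4 is above 0 and Piezo1 below 0 in both genotypes, and Klf2 and Klf6 are above 0 in wild type and below 0 in knockout, where Klf2 turns to 0.01 with TMM factors.

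The effects shared by the libraries were estimated in 1 additive model with stage and genotype, in which the 2 stages stand in as replicates of the genotype and the 2 genotypes as replicates of the stage. By edgeR's quasi-likelihood test 0 of 13416 genes (0.0%) passed a Benjamini-Hochberg adjusted p of 0.05 for genotype, with 672 at an unadjusted p under 0.05, while DESeq2 called 35 genes that rose and 9 that fell. No member was called for genotype by either tool. The estimates with their standard errors were 0.04 ± 0.21 for Klf2, -0.41 ± 0.16 for Klf4, -0.12 ± 0.15 for Klf6, 0.06 ± 0.15 for Nos3, -0.12 ± 0.15 for Thbd, 0.12 ± 0.18 for Edn1 and -0.26 ± 0.26 for Piezo1. The lowest adjusted p was that of Klf4, at 0.969. Ucp2 stood at -0.99 ± 0.16, with an adjusted p of 0.499 by edgeR, 0.0239 by edgeR on genes of 5 CPM and 4.94e-05 by DESeq2.

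For stage the same edgeR fit called 102 genes (0.76%), with none of the 7 among them. Klf4 had an effect of 0.73 ± 0.16 and Piezo1 one of -1.12 ± 0.26, at adjusted p-values of 0.091 and 0.103. DESeq2 called Klf4 (0.84 ± 0.20, adjusted p 0.0015) and gave Piezo1 an adjusted p of 0.102. On the edgeR fit limited to genes of 5 CPM both passed, with adjusted p-values of 0.0161 for Klf4 and 0.026 for Piezo1. The remaining members had edgeR adjusted p-values between 0.336 (Thbd) and 0.96 (Klf6). The model leaves 1 residual degree of freedom and counts a genotype effect that differs between stages as noise, so its p-values say nothing of how embryos of 1 group vary.

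Relatives of the members in the KLF family mostly had the signs of Klf2 and Klf6. At E15, 7 of the 9 other family members measured were above 0 in knockout (median 0.34), and at E18, 6 of 8 were below 0 (median -0.22). Klf11, a factor linked to TGF-beta signalling, had ratios of -0.34 at E18 and 0.34 at E15, Klf13 -0.40 and 0.51, and Klf3, a transcriptional repressor, -0.32 and 0.36. Klf10 had 0.04 at E18 and 0.31 at E15. None was past 2-fold between genotypes, and the edgeR test called 0 of 9 for genotype and 0 of 9 for stage. Per length Klf10 and Klf11 stood below Klf4 in the knockout library at E18, at 39.1 and 33.3 CPM per kilobase against 48.5. At E15 Klf10 stood above Klf4, at 56.4 against 25.6 in knockout and 45.4 against 38.9 in wild type. Klf11 stood above Klf4 at E15 in knockout (40.2) and below it in wild type (31.7). Klf1, the erythroid member, had 28 reads in knockout and 21 in wild type at E18.

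**Figure D4:**
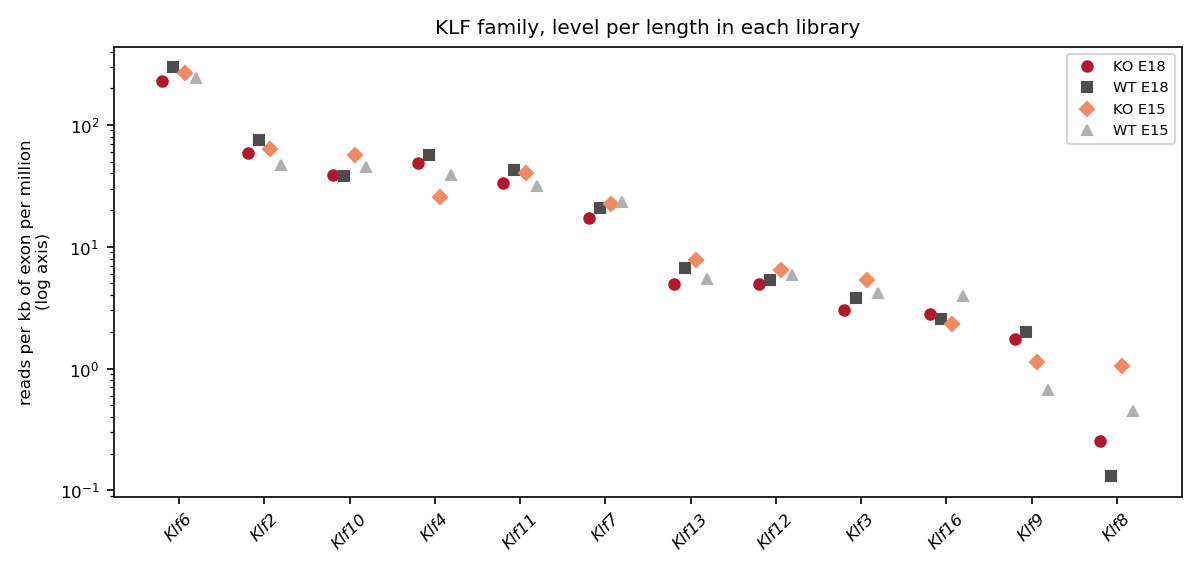
Level per length of the 12 KLF family genes with reads in all 4 libraries, in CPM per kilobase of exon on a log axis, ordered by their mean. Klf6 is highest and Klf8 lowest in each library.

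Upstream of the factors, the list of 16 other flow sensors and junctional components was evenly split. At E18, 8 of 16 measured genes were above 0 in knockout (median 0.00) and at E15, 8 of 15 (median 0.06). Trpv4, a calcium channel opened by shear and stretch, was past 2-fold at E18 on few reads, with 48 in knockout and 7 in wild type (ratio 1.22). The junctional sensors Pecam1 (-0.11 at E18, -0.16 at E15), Cdh5, which encodes VE-cadherin (0.31 and -0.02), and Kdr, the VEGF receptor of that complex (-0.24 and -0.10), were all within 2-fold. In the knockout pair Cdh5 was past 2-fold higher at E18 (8506 reads at E18 and 3136 at E15, ratio 1.01), as was Sdc4, a syndecan (1.23), and the integrin gene Itgb1 was past 2-fold lower (-1.0). In that pair 2 of 15 measured genes were past 2-fold higher and 1 lower, where 4.34% and 10.9% of all genes were. The edgeR test called 0 of 16 for genotype and 0 for stage.

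The cascade from MEKK3 to MEF2, with its inhibitors of the cerebral cavernous malformation complex, had 0 of 13 genes past 2-fold between genotypes at either stage, where 6.8% of all genes were at E18 and 6.87% at E15. The medians were -0.04 at E18 and 0.07 at E15. Mapk7, which encodes ERK5, had genotype ratios of 0.18 at E18 and 0.06 at E15, and Map3k3, which encodes MEKK3, -0.05 and 0.12. Mef2c, a MEF2 factor of endothelium, had -0.57 at E18 and -0.23 at E15. Krit1, a cavernous malformation gene whose loss raises Klf2 and Klf4 in mouse endothelium, had -0.55 at E18 and 0.07 at E15. Between stages Map2k5, which encodes MEK5, was past 2-fold in the knockout pair, with 341 reads at E18 and 618 at E15 (ratio -1.23), and Krit1 had -1.08 there. Map3k2 was past it in the wild-type pair, with 89 reads at E18 and 289 at E15 (-1.79). In knockout 2 of the 13 were past 2-fold lower, where 10.9% of all genes were. In wild type 1 of the 13 was, where 7.58% of all genes were. The edgeR test called 0 of 13 for genotype and 0 for stage.

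Other genes known as raised by laminar flow or by KLF2 and KLF4 had 11 of 16 measured below 0 in knockout at E18 (median -0.11). Of these 3 were past 2-fold lower, where 3.92% of all genes were. These were Gja5, the arterial connexin 40 (143 reads in knockout and 322 in wild type, ratio -1.25), the kinase gene Bmx (90 and 201 reads, -1.18) and Cyp1b1, a cytochrome P450 (28 and 71 reads, -1.05). At E15, 9 of 15 were below 0 (median -0.01), with Gja5 at 0.02 and Bmx at -0.43. Aqp1, a water channel, had 0 reads in knockout and 61 in wild type at E15, at least 21.4-fold lower against a floor of 3 reads in the knockout library, whereas at E18 its ratio was 0.87. Cav1, the caveolin that holds Nos3 at the membrane, had -0.26 at E18 and 0.29 at E15. Of these 16 genes 1, the vasodilator peptide gene Adm, was called by edgeR for stage, where it rose (0.82, adjusted p 0.0483), and 0 for genotype.

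Genes known as lowered by flow had a similar split at E18, with 7 of 11 below 0 (median -0.18), and 6 of 11 were above 0 at E15 (median 0.06). Of the 11, 1 was past 2-fold lower in knockout at E18, where 3.92% of all genes were. At E15 1 was past 2-fold higher, where 3.55% of all genes were. That was the adhesion molecule gene Vcam1, with 107 reads in knockout and 42 in wild type (1.03), which stood at -0.83 at E18. Between stages 1 was past 2-fold higher and 2 lower in each genotype. The shares of all genes were 4.34% and 10.9% in knockout, and 3.08% and 7.58% in wild type. Angpt2, a vessel-destabilising ligand, had -0.18 at E18 and 0.31 at E15. The edgeR test called 0 of these 11 for genotype and 0 for stage.

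In the nitric oxide pathway around Nos3 the gene that stood out was Gch1, which encodes the rate-limiting enzyme for tetrahydrobiopterin, the cofactor of Nos3. It had 289 reads in knockout and 143 in wild type at E18, and 1327 in knockout and 248 in wild type at E15. The E15 knockout library was highest, at 81.3 CPM, against 16.0 CPM in wild type (ratio 2.28, interval 2.15 to 2.55). The additive test gave Gch1 a genotype effect of 1.60 with an adjusted p of 0.862. Of the other pathway genes 12 of 18 measured were above 0 at E15 (median 0.06), Gch1 included, and 9 of 17 at E18 (median 0.00). At E15 1 of the 18, Gch1, was past 2-fold higher, where 3.55% of all genes were. Slc7a1, the arginine transporter, was the most abundant by reads, with 1804 CPM in knockout and 1535 CPM in wild type at E18.

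Downstream of nitric oxide, Prkg1, the cyclic GMP-dependent kinase, had 104 reads in knockout and 220 in wild type at E18 (-1.13). The guanylate cyclase subunit gene Gucy1b3 had 2389 reads at E18 and 631 at E15 in knockout (1.47). Nostrin, which sends Nos3 into vesicles, had 7027 reads at E18 and 2836 at E15 in wild type (1.01), and an edgeR stage effect of 0.89 at an adjusted p of 0.0507. In knockout at E18 1 of 17 genes of this list was past 2-fold lower, where 3.92% of all genes were. Between stages 1 of 17 was higher and 2 lower in knockout, where 4.34% and 10.9% of all genes were. In wild type 1 of 18 was higher and 1 lower, where 3.08% and 7.58% of all genes were. The edgeR test called 0 of 19 genes of this list for genotype and 0 for stage.

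Around Thbd, 2 of 9 genes tested in the clotting list were called by edgeR for stage, where 0.76% of all genes were, and both rose at E18. Vwf, the von Willebrand factor gene, had an effect of 1.01 (adjusted p 0.0335), and Serpine2, a thrombin inhibitor, one of 1.33 (adjusted p 0.0228). Procr, the protein C receptor that works with Thbd, had 89.5 CPM in knockout and 64.8 CPM in wild type at E18, and 93.9 CPM in knockout and 119 CPM in wild type at E15. The tissue factor gene F3 had 1, 3, 5 and 12 reads in knockout and wild type at E18 and then at E15. Between genotypes 6 of 9 measured genes were below 0 at E18 (median -0.10) and 5 of 9 at E15 (median -0.08).

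Around Edn1, the receptor gene Ednrb was lower in knockout at E15, with 255 reads in knockout and 598 in wild type (-1.25), and had 850 reads in knockout and 473 in wild type at E18. Ednra, the contractile receptor of mural cells, had 212 CPM in knockout and 199 CPM in wild type at E18, and 143 CPM in knockout and 219 CPM in wild type at E15. The second ligand gene Edn3 had 160 reads in knockout and 385 in wild type at E18 (-1.36). Ece1, the converting enzyme that matures endothelin-1, stayed between 661 and 762 CPM in all 4 libraries. At each stage 1 of 5 genes was past 2-fold lower in knockout, where 3.92% of all genes were at E18 and 3.32% at E15. The edgeR test called 0 of 5 for genotype and 0 of 5 for stage.

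**Figure D5:**
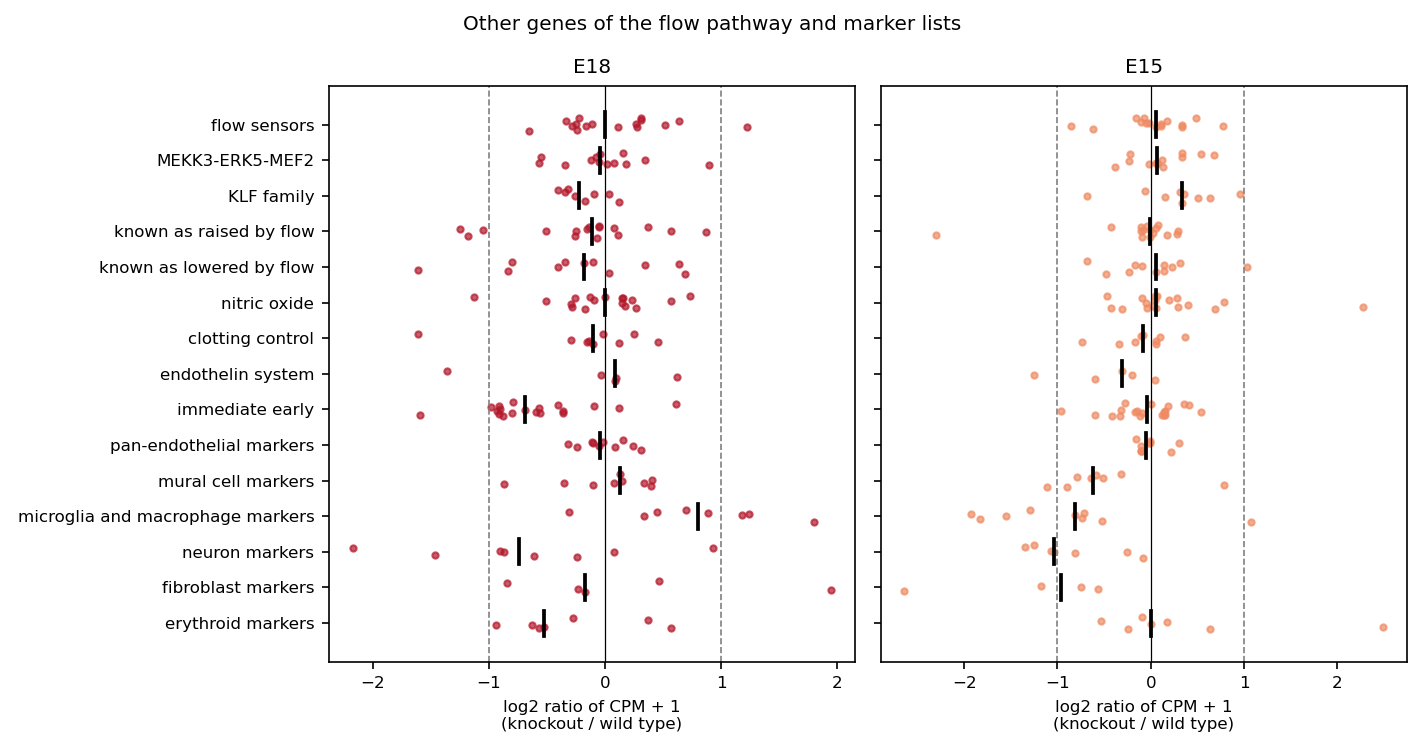
Log2 ratio of CPM + 1, knockout over wild type, for the measured genes of each list without the 7 members, at E18 (left) and E15 (right). Each point is a gene, black bars are list medians, and dashed lines mark the 2-fold ratios. Immediate early genes lie mostly below 0 at E18 (median -0.69) and around 0 at E15 (median -0.04), and mural markers mostly below 0 at E15 (median -0.62).

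Immediate early and dissociation genes moved beside the KLF factors at E18. Of 19 measured, 17 were below 0 in knockout (median -0.69). Among them Fosb, an AP-1 subunit, was past 2-fold (8394 reads in knockout and 21964 in wild type, -1.59). That was 1 of 19 past 2-fold lower, where 3.92% of all genes were. At E15, 10 of 20 were above 0 (median -0.04) and 0 were past 2-fold. The summed level of the 21 genes was 17275 CPM in knockout and 27427 CPM in wild type at E18, and 14804 CPM in knockout and 15459 CPM in wild type at E15, and none was at 0. Klf2, Klf4 and Klf6 likewise had their highest level in the wild-type library at E18. So did Nos3 (174 CPM, with 166 CPM in knockout at E18) and Thbd (156 CPM, with 155 CPM in knockout at E18). For stage the edgeR test called 3 of 20, of which Egr1 (1.40) and Zfp36 (1.15) rose and the heat shock gene Hspa1a fell (-2.92), with adjusted p-values of 0.0318, 0.0318 and 0.0287. The part of these genes in the KLF values was not tested.

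Markers of other cells differed between the libraries as well. The 10 mural cell markers summed to 11642 CPM in knockout and 9325 CPM in wild type at E18, and 4887 CPM in knockout and 7323 CPM in wild type at E15, none at 0. At E15, 7 of 8 measured were below 0 in knockout (median -0.62, beside -0.60 for Klf4), and at E18, 6 of 9 were above 0 (median 0.13, beside -0.22 for Klf4). Of the other members at E15, Thbd (-0.24) lay below 0. Klf2 (0.42), Klf6 (0.14), Nos3 (0.18), Edn1 (0.06) and Piezo1 (0.06) lay above it. Between stages the mural median was 1.05 in knockout, beside 0.91 for Klf4, and 0.37 in wild type, beside 0.54 for Klf4. The other members ranged from -1.38 (Piezo1) to 0.44 (Thbd) in knockout, and from -0.76 (Piezo1) to 0.66 (Klf2) in wild type. The 10 microglial and macrophage markers summed to 63.8 CPM in knockout and 38.2 CPM in wild type at E18, and 274 CPM in knockout and 584 CPM in wild type at E15. At E15 8 of 9 of them were below 0 in knockout (median -0.81), whereas at E18 7 of 8 were above 0 (median 0.80). For stage the edgeR test called 3 of 9, Csf1r, C1qc and Cx3cr1, which fell. Their part in the values of the 7 genes was not tested.

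The 7 fibroblast markers summed to 215 CPM in knockout and 211 CPM in wild type at E18, and 147 CPM in knockout and 309 CPM in wild type at E15. Neuron markers, 8 genes, lay between 44.2 and 97.9 CPM, highest in wild type at E15, and 8 erythroid markers between 404 and 917 CPM, highest in wild type at E18. Snap25 was at 0 in the knockout library at E18, Dcn in the wild-type library at E18 and Pdgfra in both knockout libraries. Scaled to the geometric mean of the 10 pan-endothelial markers, an alternative chosen after the data were seen, the genotype ratios were within 0.01 of those above, with Klf2 at -0.34 at E18 and 0.43 at E15 and Klf4 at -0.22 and -0.59.

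Finally, profiles over the 4 libraries were compared by the root mean square difference of centred log2(CPM + 1) values, among 8554 other genes that averaged 10 CPM or more. With 4 points per gene such a likeness is a description alone. The genes nearest to Klf4 were Col1a1 (0.0482), a fibroblast collagen, Trmt61a (0.0522), Abcc9 (0.053), the potassium channel subunit that marks pericytes, and Adar (0.0746), and 11 genes lay within 0.1. Abcc9 had 252 CPM in knockout and 269.8 CPM in wild type at E18, and 129.7 CPM in knockout and 203 CPM in wild type at E15. Nearest to Klf2 were Dusp23 (0.0241), Pgpep1, Bbs7 and Aldh4a1, with 61 genes within 0.1. Around the flat profile of Nos3 711 genes lay within 0.1, Pigp (0.00981), Glce, Dnm2 and Gstk1 being nearest. Of the other members, Nos3 was nearest to Klf2 (0.153, place 298) and Thbd nearest to Klf4 (0.249, place 393).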

How the data were processed

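RNA sequencing counts of 4 libraries of mouse brain endothelial cells were used, 1 per group by genotype and stage. The authors deposited raw read counts per Ensembl gene for each stage, per the file headers, and no normalization was applied to the columns used here. Bowtie2 2.2.3, TopHat2 2.0.12, HTSeq 0.6.0 and the build mm9 are listed in the submitters' processing notes with no role given, whereas 18140 of 20143 identifiers (90.1%) had the start and end of GENCODE M21 on GRCm38, so coordinates are read as GRCm38. The strand setting of the counting is not stated. With 1 library a group, p-values measure only the spread left by an additive model.

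Counts were scaled to library totals over all listed genes (CPM). A pseudocount of 1 CPM was added before log2 ratios were taken, so those of low genes are understated. A comparison took genes that reached 1 CPM in either library and 50 reads over both, and stage comparisons took genes listed in both tables. Levels per length used the merged exon length of GENCODE M21. The additive model was fitted with edgeR 4.0.16 (quasi-likelihood test, library totals, genes with 1 CPM in 2 libraries, common dispersion 0.11, 5.66 prior degrees of freedom), and its standard errors are the effect divided by the root of F. DESeq2 1.42.0 was an alternative, beside TMM factors, DESeq2 size factors, pseudocounts of 0.5 and 5 CPM, no filter, a filter of 5 CPM and, chosen after the data were seen, scaling to 10 endothelial markers. Procedures were tested on simulated data. For edgeR the simulated spread was smaller than the fitted one, so that test does not show which effects these data can reveal. The intervals of the ratios follow from read counts alone, at 15542930 to 21992660 reads a library. They do not cover variation between embryos or preparations, which was not measured.

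The members and the 15 gene lists were chosen with earlier results of these data known, and lists are described without the 7 members. Named genes were the members, Ucp2, some of the list genes past 2-fold (at most 4 by size in a comparison) and the 4 nearest profiles of Klf2, Klf4 and Nos3. List genes named within 2-fold, the list genes called by edgeR and the sex-linked genes were chosen after their values were seen. The motifs were chosen for known regulators of these genes. One gene of the lists is not reported here by name.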

Additional observations from a re-analysis of the deposited data

Results flagged for a closer look

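Klf2 and Klf6 drew attention because the knockout library lay on opposite sides of wild type at the 2 stages, with both counting intervals clear of 0. The knockout log2 ratio at E18 minus that at E15 was -0.77 for Klf2 (counting interval -0.91 to -0.65) and -0.53 for Klf6 (-0.57 to -0.49). With 1 library a group the difference was not tested, and among 11784 genes measured at both stages 19.4% had a larger absolute difference than Klf2 and 33.0% a larger one than Klf6. The E18 libraries also differed in sex-linked transcripts, and the part of that difference was not tested.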

How the results depend on the processing

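Of 140 recomputed log2 ratios of the members, 33 moved by more than their counting interval, 32 of them between stages under another scaling. The sign changed 3 times, in the knockout stage ratio of Klf2 (0.01 with TMM factors, 0.02 with DESeq2 size factors) and of Nos3 (-0.14 against the endothelial marker mean). Members past 2-fold between stages in knockout numbered 2 with TMM factors and 2 with DESeq2 size factors, Klf4 joining Piezo1 at 1.02 and 1.04. Counts of all genes past 2-fold changed with the pseudocount and the filter. With a pseudocount of 5 CPM, 42 were higher and 82 lower in knockout at E18 (356 and 484 as reported), and 163 and 75 at E15 (448 and 420). Between stages it left 178 higher and 601 lower in knockout, and 143 and 286 in wild type. Without a filter 567 were higher and 876 lower at E18, and 756 lower at E15, and with a filter of 5 CPM 211 and 275 at E18, and 266 lower at E15. In the additive model 0 genes rose and 0 fell with genotype as reported, 3 rose with TMM factors, 13 rose and 2 fell with a filter of 5 CPM, and 35 rose and 9 fell by DESeq2. For stage 53 rose and 49 fell as reported. TMM factors gave 122 that rose, no filter 19 and 22, a filter of 5 CPM 322 and 630, and DESeq2 356 and 360. Members called for stage numbered 2 with the filter of 5 CPM (Klf4 and Piezo1) and 1 by DESeq2 (Klf4). The causes of these moves were not tested. No paired analysis was possible because each group held 1 library, so that no replicate numbers pair libraries beyond the stage and genotype terms of the additive model.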
